A study of Mus musculus with 4 samples.

Results

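The 41 genes described here build or switch on motile cilia, the beating hairs of ependymal cells. They were chosen as a list of named axonemal dyneins, radial spoke, central apparatus and other axoneme genes with their transcriptional regulators. All 41 were found among the 55414 gene identifiers of the deposited count table, and all 41 were among the 21592 genes with enough reads to be tested. The samples were 4 mouse messenger RNA libraries, 2 from wild-type animals (WT) and 2 from Stra8 knockouts (Stra8-KO, here KO). Per the series design, mice of both genotypes carried pStra8-GFP, in which the promoter of Stra8 drives green fluorescent protein. Cells positive for that protein were sorted from their hippocampi, while the sample labels give the tissue as brain. The sources used here do not give the knockout allele, the age or sex of the mice, the number of animals behind a library, or whether replicate libraries are from different mice. If they are not, the p-values measure only the spread between these libraries, which may be technical.

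A motile cilium holds a ring of paired microtubules around a central pair. Outer and inner dynein arms on the ring slide the pairs past each other, while radial spokes, the central apparatus and the dynein regulatory complex control when each arm pulls. FOXJ1 and RFX transcription factors switch on the genes for these parts, and MCIDAS and CCNO drive the cell to make many centrioles. In the brain such cilia are carried by the ependymal cells that line the ventricles, where they move cerebrospinal fluid. Choroid plexus epithelium also bears cilia, in tufts.

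RFX factors bind the X-box, a sequence whose arms mirror each other, so promoter windows of the listed genes were read for it. RefSeq windows from 250 bases before to 50 bases after an annotated start (build GRCm38.p6, while the counts were made on GRCm39) were matched for 37 of the 41 genes. The arm GTTGCC, read on both strands, occurred in windows of 19 of these 37 genes (51.4%) and of 3821 of all 27025 genes with a window (14.1%). A form with both arms, GTTGC followed after 3 or 4 bases of any kind by GCAAC, reads alike on both strands. It leaves the last base of GTTGCC free, so a match need not hold GTTGCC on either strand. It was written after a window of one of the listed genes had been seen. It occurred in 8 of the 37 genes (21.6%) and in 120 of the 27025 (0.444%). The gene whose window had been seen was not set aside, so these shares are not a test of the form. Another form, GTTGCC followed after 2 bases by GGNAAC, occurred in 0 of the 37 and in 0.355% of all genes. The median GC content was 54.8% over the 42 windows of the listed genes and 52.7% over all windows. A match is a description of the letters and was not tested as a binding site. Of the 8 genes with paired arms 7 are shown, because this feature was not used to choose them. The arms and the bases between them are in capitals, and coordinates are of GRCm38.p6.
Dnah7a, chr1:53706817-53706853, minus strand: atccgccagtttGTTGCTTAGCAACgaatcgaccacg
Dnai2, chr11:114727374-114727410, plus strand: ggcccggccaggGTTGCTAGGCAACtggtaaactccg
Dynlrb2, chr8:116504952-116504988, plus strand: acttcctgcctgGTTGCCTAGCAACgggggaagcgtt
Hydin, chr8:110266944-110266981, plus strand: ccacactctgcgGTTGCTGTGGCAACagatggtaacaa
Tekt2, chr4:126325693-126325729, minus strand: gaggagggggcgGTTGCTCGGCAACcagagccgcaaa
Tekt4, chr17:25471542-25471578, plus strand: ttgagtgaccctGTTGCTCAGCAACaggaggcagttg
Cfap44, chr16:44394760-44394797, plus strand: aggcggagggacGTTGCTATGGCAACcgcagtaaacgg

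The paired arms began between 71 and 21 bases before the annotated start in these 7 genes, and those starts belong to dynein genes (Dnah7a, Dnai2, Dynlrb2), central apparatus (Hydin), tektins (Tekt2, Tekt4) and a tether protein (Cfap44). The forkhead motif GTAAACA, of the kind FOXJ1 binds, occurred in 3 of the 37 genes (8.11%), Cfap43, Ak7 and Mlf1, and in 4.05% of all genes. Positions of the matches are drawn in the plot of promoter windows.

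**Figure D1:**
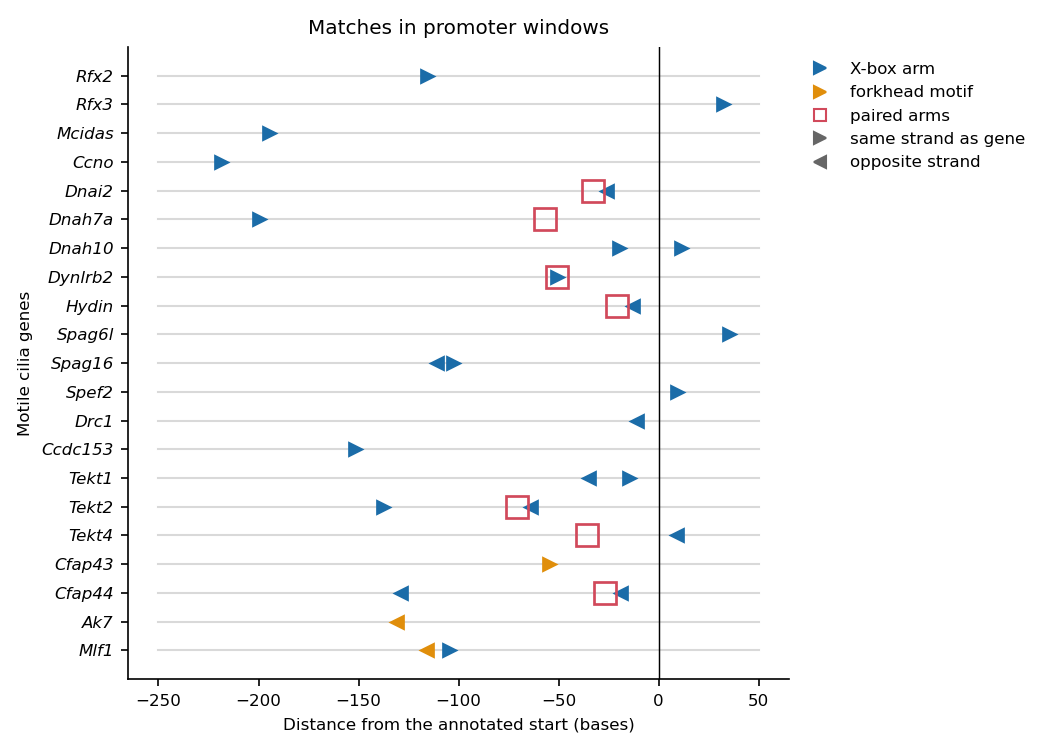
Matches in the promoter windows of the listed genes, by distance in bases from the annotated start (0). Blue triangles mark the X-box arm and point along its strand, orange triangles mark the forkhead motif, and open red squares mark paired arms; the 7 squares drawn sit between 71 and 21 bases before the start. Genes without a match, the 4 listed genes without a window and 1 gene whose window is not reported are left out.

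Depth was 71097417 to 82172740 reads per library, with 28356 to 28801 genes detected. Stra8 itself had 5 and 1 reads in the WT libraries and 7 and 4 in the KO libraries, so these counts do not check the genotype. Genes of the cerebellum and pituitary, which lie outside the hippocampus that the series design names, were also read. A list of 10 of them summed to 264 and 269 CPM (read counts scaled to a common library size) in WT, and to 134 and 133 CPM in KO.

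Motile cilia genes differed little between the genotypes. Of the 41, 2 fell in KO, the transcription factor gene Rfx3 and the inner arm dynein gene Dnah6, and 0 rose (quasi-likelihood test of edgeR, p adjusted by Benjamini-Hochberg over all genes tested and under 0.05, n = 2 libraries per genotype). Among all genes tested 6.53% were called, 3.19% lower and 3.35% higher, so 2 of 41 is near the background. At an unadjusted p under 0.05, 9 of the 41 were lower and 1 higher, where all genes gave 8.53% lower and 8.86% higher. DESeq2, which gave no adjusted p for some of the 41, called 0 lower and 0 higher, and limma-trend called 2 lower and 0 higher. The median log2 fold change (KO over WT) of the 41 was -0.12, and that of all genes tested was -0.0004. The fold change was below 0 for 34 of the 41, and for 50.1% of all genes. Both KO libraries lay below both WT libraries for 22 of the 41 (22.9% of all genes) and above them for 2 (22.8% of all genes). In bulk RNA, fewer ciliated cells and less RNA per ciliated cell cannot be told apart.

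The summed level of the 41 genes was 245.1 and 245.5 CPM in WT and 226.4 and 229.2 CPM in KO. Both KO sums were below both WT sums, at 0.929 of the WT mean. Rfx3 alone made up 61.7, 60.6, 55.7 and 56.7 CPM of these sums in the order WT 1, WT 2, KO 1 and KO 2, and without it the ratio of the sums was 0.932. For single genes, ratios between libraries of a genotype are given beside ratios between genotype means. These are unlike measures, because a mean over libraries varies less than a single library. The median ratio of the higher to the lower library was 1.11 in WT and 1.08 in KO, and the median ratio between genotype means was 1.13. WT libraries differed by more than 1.2-fold for 12 of the 41 genes, KO libraries for 8, and genotype means for 13.

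**Figure D2:**
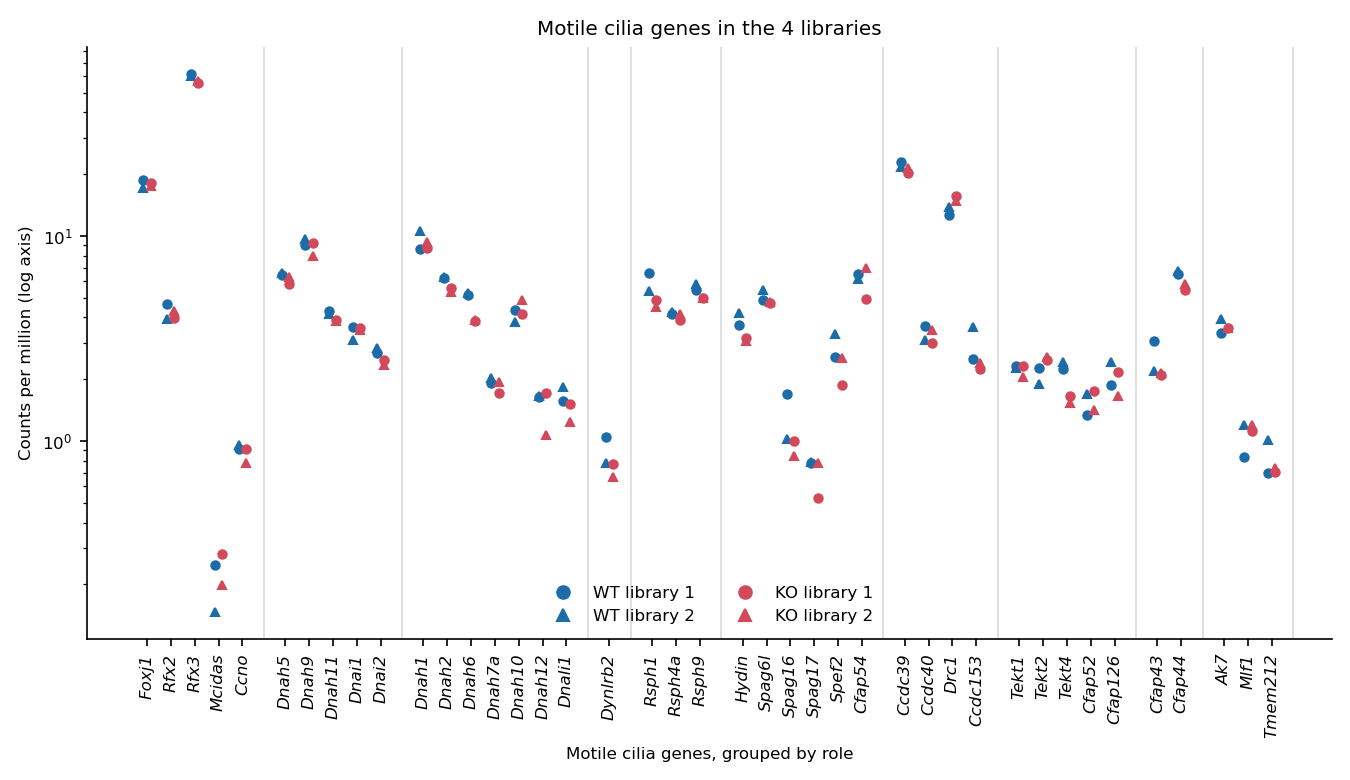
Level of each listed gene in CPM (log axis) in the 4 libraries, genes grouped by role and the groups parted by grey lines; blue is WT, red is KO, circles are library 1 and triangles library 2. Rfx3 and Dnah6 have both red symbols below both blue ones, as do 20 other genes, where 22.9% of all genes tested lie that way. Levels run from 0.146 for Mcidas to 61.7 for Rfx3.

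Among the regulators, Rfx3, which drives ciliary genes and is also made in cells without motile cilia, had 61.7 and 60.6 CPM in WT and 55.7 and 56.7 in KO. The genotypes did not overlap, and the log2 fold change was -0.12 (SE 0.032, 95% interval -0.19 to -0.06, edgeR adjusted p = 0.0199). The call was lost in DESeq2 (adjusted p = 0.063). It was also lost in edgeR when WT library 1 was left out (adjusted p = 0.171) or KO library 1 was (adjusted p = 0.117), where the lone library left in a genotype is then assumed to vary like the other genotype. Of the X-box arms, the Rfx3 window held 1, placed after the annotated start, whose 6 letters are in capitals. It is shown because Rfx3 is one of the genes that fell.
Rfx3, chr19:28011117-28011416, minus strand: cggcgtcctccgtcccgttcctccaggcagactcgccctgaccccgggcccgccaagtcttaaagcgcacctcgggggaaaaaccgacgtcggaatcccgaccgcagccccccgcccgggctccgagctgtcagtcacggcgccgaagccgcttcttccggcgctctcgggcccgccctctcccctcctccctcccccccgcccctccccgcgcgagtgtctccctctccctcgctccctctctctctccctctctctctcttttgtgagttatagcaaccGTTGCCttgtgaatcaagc

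Foxj1, the master regulator of motile cilia, had 18.7 and 17.1 CPM in WT and 18.1 and 17.5 CPM in KO. The libraries overlapped, and the log2 fold change was -0.005 with a 95% interval from -0.13 to 0.12 (edgeR adjusted p = 0.983). The interval thus leaves room for a fold between 0.912 and 1.09. Rfx2, a close relative of Rfx3, had 4.67 and 3.91 CPM in WT and 3.97 and 4.29 CPM in KO, also overlapping (log2 fold change -0.06, interval -0.31 to 0.19).

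Mcidas and Ccno act early, when a cell commits to many cilia, and had few reads. Mcidas had 20 and 12 reads in WT and 23 and 14 in KO, or 0.248, 0.146, 0.281 and 0.198 CPM. At that depth its 95% interval spanned folds from 0.568 to 2.62, so the counts leave that whole range possible. Ccno had 0.917 and 0.951 CPM in WT and 0.916 and 0.776 CPM in KO, with KO library 1 just under WT library 1 (log2 fold change -0.14, SE 0.253).

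Outer arm genes gave 0 calls of 5 and a median log2 fold change of -0.12. Dnah9, a motor subunit and the outer arm gene with most reads, had 9.07 and 9.61 CPM in WT against 9.20 and 7.96 in KO, with 1 KO library inside the WT range and the other below it. Dnah5, the other main motor of the arm, had 6.47 and 6.62 CPM in WT and 5.84 and 6.34 in KO, not overlapping, but its interval of -0.30 to 0.09 on the log2 scale included 0. The intermediate chain genes Dnai1 and Dnai2 had fold changes of 0.07 and -0.19 on that scale, and Dnah11 one of -0.13.

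The inner arm held the other fall. Dnah6, a motor subunit of the inner arms, had 5.13 and 5.24 CPM in WT and 3.86 and 3.88 CPM in KO. The genotypes did not overlap, with means of 5.19 ± 0.078 and 3.87 ± 0.015 CPM (SD, n = 2). These values rest on 414 and 430 reads in WT and 316 and 275 in KO. An SD of 2 values is itself uncertain and can fall below counting error, so it does not measure how well the level repeats. The KO level was 0.746 of WT, a log2 difference of -0.42 (SE 0.11, interval -0.65 to -0.20, edgeR adjusted p = 0.0175). DESeq2 gave the same fold without a call (adjusted p = 0.0698), and the edgeR call was lost without WT library 2 (adjusted p = 0.0754) and without KO library 1 (adjusted p = 0.0662).

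No other inner arm gene was called, and the 7 had a median log2 fold change of -0.19. Dnah1, the inner arm gene with most reads, had 8.60 and 10.6 CPM in WT and 8.76 and 9.29 CPM in KO, with both KO values inside the WT range. Dnah2 and Dnah10 encode the motors of the same double-headed inner arm. Dnah2 had 6.20 and 6.29 CPM in WT against 5.58 and 5.34 in KO (log2 fold change -0.19, interval -0.39 to 0.007). Dnah10 had 4.34 and 3.79 against 4.17 and 4.86, a fold change in the other direction (0.15, interval -0.10 to 0.40), and neither was called. Dnah12 had 1.64 and 1.66 CPM in WT, and in KO 1 library was above these (1.72 CPM) and the other below (1.07 CPM). Dnali1, the light intermediate chain, had a log2 fold change of -0.29, with all 4 values between 1.24 and 1.83 CPM.

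Dnah7a has close copies in the mouse genome, so its reads may be split among them and its value is uncertain. It had 1.92 and 2.02 CPM in WT and 1.72 and 1.93 in KO, while Dnah7b had 5.90 and 5.67 CPM and Dnah7c 1.24 and 1.41 CPM as genotype means. None of the 3 was called. Dynlrb2, a dynein light chain gene, had 84 and 64 reads in WT and 63 and 47 in KO. Its log2 fold change of -0.34 had an interval from -0.90 to 0.22.

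Radial spoke genes lay below WT in KO for 3 of 3 (22.9% of all genes), with 0 calls. Rsph1, which encodes a protein of the spoke head, had 6.59 and 5.41 CPM in WT and 4.87 and 4.49 in KO. Its log2 fold change was -0.36 (SE 0.111, interval -0.59 to -0.13) and its edgeR adjusted p 0.0554, just outside the threshold. The spread within WT was larger than that in KO, and without WT library 1 the log2 fold change was -0.21 (edgeR adjusted p = 0.55). It passed without WT library 2 (-0.49, edgeR adjusted p = 0.0049) and without KO library 1 (-0.42, adjusted p = 0.0481). Rsph9 had 5.42 and 5.80 CPM in WT and 4.996 and 4.997 in KO, and Rsph4a, another head protein gene, 4.16 and 4.24 against 3.90 and 4.15.

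Central apparatus genes had the lowest median of the roles with at least 3 genes, -0.31 on the log2 scale, with 0 of 6 called. Cfap54, the member with most reads, spread widely in KO, at 4.90 and 6.97 CPM against 6.54 and 6.13 in WT. Hydin, whose loss in mice leads to hydrocephalus, had 3.67 and 4.19 CPM in WT and 3.18 and 3.06 in KO (log2 fold change -0.33, interval -0.59 to -0.07, edgeR adjusted p = 0.139). Spef2 had 2.57 and 3.34 CPM against 1.88 and 2.54, and Spag16 1.70 and 1.02 against 1.002 and 0.847. In both, the nearest WT and KO values were almost equal, and the log2 fold changes of -0.43 and -0.55 had edgeR adjusted p of 0.155 and 0.239. Spef2 passed without WT library 1 (-0.60, edgeR adjusted p = 0.0217) and without KO library 2 (-0.65, adjusted p = 0.0135), and Spag16 without WT library 2 (-0.87, adjusted p = 0.0235). In the other direction, Spef2 was at -0.22 both without WT library 2 (adjusted p = 0.692) and without KO library 1 (adjusted p = 0.645), and Spag16 at -0.14 without WT library 1 (adjusted p = 0.916). Spag17 had the lowest level per exon length of all 41 genes. Spag6l, at 4.88 and 5.43 CPM in WT and 4.70 and 4.76 in KO, has a near copy in Spag6 (1.26 and 1.36 CPM as genotype means), and reads may be split between them.

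In the ruler and dynein regulatory complex the members went different ways and 0 of 4 were called. Ccdc39, which with Ccdc40 sets the spacing of arms and spokes along the cilium, had 22.8 and 21.7 CPM in WT and 20.3 and 21.4 in KO (log2 fold change -0.10, interval -0.21 to 0.02). Ccdc40 had 3.62 and 3.12 against 2.99 and 3.49, overlapping. Drc1, the core of the regulatory complex, was the gene closest to a rise, with 12.6 and 13.8 CPM in WT and 15.7 and 14.9 in KO. On the log2 scale KO was higher by 0.21 (SE 0.068, interval 0.07 to 0.36, edgeR adjusted p = 0.0635). It passed without WT library 2 (adjusted p = 0.0333) and without KO library 2 (adjusted p = 0.0385), and had adjusted p of 0.446 without WT library 1 and 0.305 without KO library 1. Ccdc153, a coiled-coil gene of ciliated cells, had 2.52 and 3.58 CPM in WT and 2.25 and 2.3997 in KO. Its log2 fold change of -0.39 (edgeR adjusted p = 0.179) became -0.63 without WT library 1, where it passed (adjusted p = 0.0101), and -0.12 without WT library 2 (adjusted p = 0.874).

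The tektin genes, whose proteins line the inside of the paired microtubules, also divided. Tekt4 had 2.23 and 2.43 CPM in WT and 1.65 and 1.52 in KO, with a log2 fold change of -0.55 (SE 0.169, interval -0.90 to -0.20) and an edgeR adjusted p of 0.0523. With a library left out, its log2 fold change ran from -0.61 to -0.49, and it was not called in any of those fits. Tekt2 had 2.28 and 1.90 CPM in WT and 2.48 and 2.55 in KO, above WT in both libraries (0.27, interval -0.06 to 0.59). Tekt1 was close to equal, at 2.32 and 2.27 against 2.32 and 2.06. Cfap52, of the inner junction, and Cfap126 overlapped between genotypes, with log2 fold changes of 0.06 and -0.17.

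Cfap43 and Cfap44 form the tether of an inner arm, and both were lower in KO without a call. Cfap44 had 6.48 and 6.72 CPM in WT and 5.44 and 5.84 in KO (log2 fold change -0.23, interval -0.43 to -0.03, edgeR adjusted p = 0.197). Cfap43 had 3.09 CPM in WT library 1 and between 2.09 and 2.18 CPM in the other 3. The remaining genes overlapped between genotypes. The axonemal adenylate kinase gene Ak7 had 3.36 and 3.91 CPM in WT and 3.55 and 3.56 in KO. Mlf1 had 0.831, 1.19, 1.12 and 1.1998 CPM over the 4 libraries, and the ependymal membrane protein gene Tmem212 had 0.694, 1.01, 0.709 and 0.734 CPM.

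**Figure D3:**
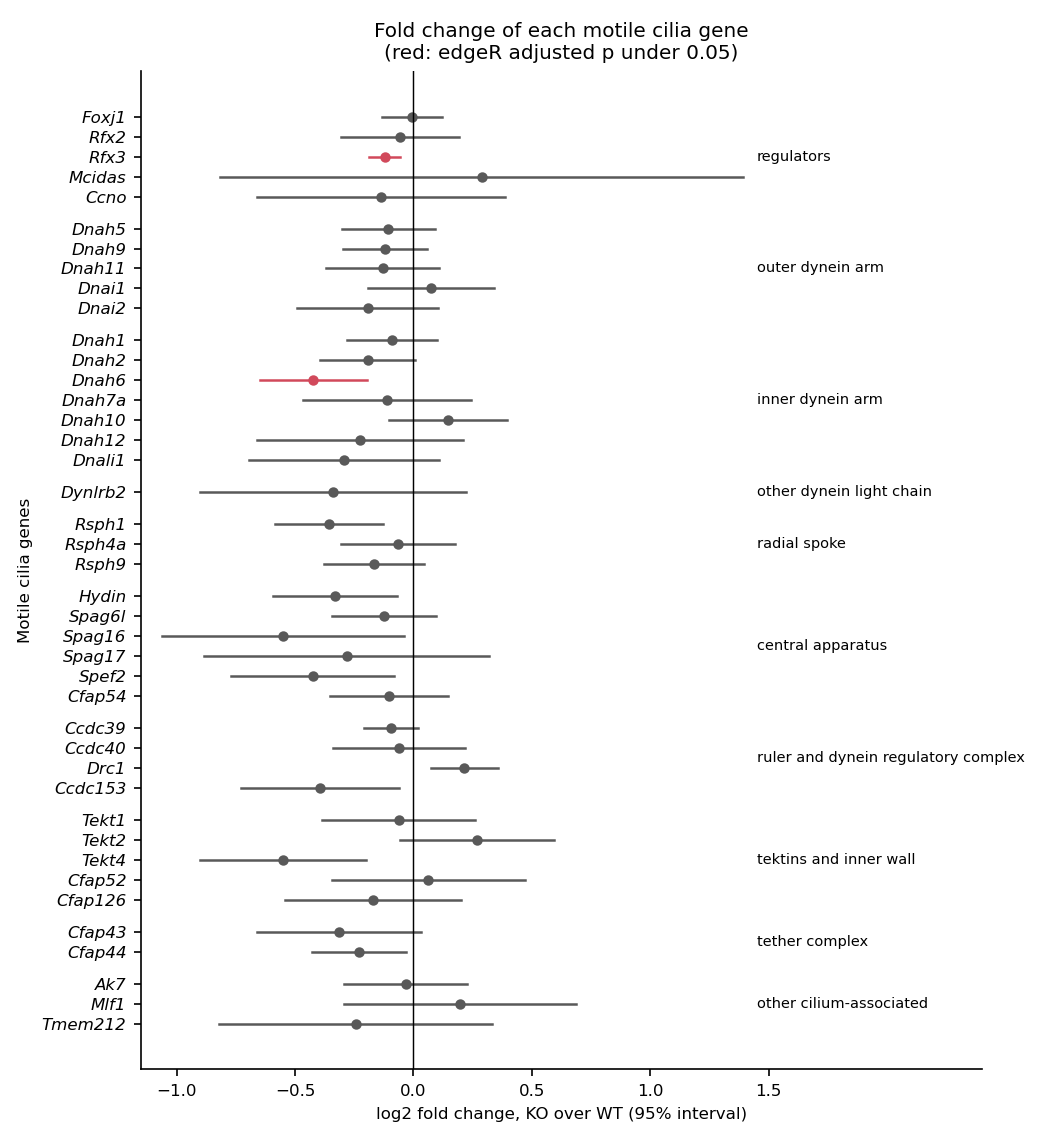
Log2 fold change of each listed gene, KO over WT, with its 95% interval (line) from the edgeR fit on 2 libraries per genotype, grouped by role; red marks an adjusted p under 0.05. Only Rfx3 and Dnah6 are red, 34 of the 41 points lie left of 0, and Mcidas has the widest interval.

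The intervals give the range of changes that the counts leave possible. For 24 of the 41 genes the 95% interval lay inside 1.5-fold in either direction, and for 39 inside 2-fold. The 2 exceptions to the latter were Mcidas, with 12 to 23 reads per library, and Spag16, whose interval reached down to 0.479 of WT. Reads per gene and library ranged from 12 to 4976, with medians of 290 and 294 in WT and 260 and 247 in KO.

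Levels can be compared between genes only per length, here as CPM per kb of merged exons in GENCODE M21. On this scale, averaged over the 4 libraries, Foxj1 was highest with 6.80, followed by Rfx3 with 5.32 and Drc1 with 5.31. The order of these 2 differed between genotypes, with Rfx3 at 5.54 and Drc1 at 4.92 in WT, and Rfx3 at 5.09 and Drc1 at 5.70 in KO. Rsph1 (3.89), Rsph9 (3.31) and Ccdc39 (2.90) came next, and after them a gap to Dynlrb2 with 1.46. The heavy chain dyneins ran from 0.714 for Dnah1, at rank 20 of the 41 genes, to 0.127 for Dnah12, at rank 39. Mcidas with 0.0918 and Spag17 with 0.0847 were lowest. The genotypes overlapped for Mcidas. For Spag17 both KO libraries (0.525 and 0.776 CPM) lay below both WT libraries (0.781 and 0.792 CPM).

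**Figure D4:**
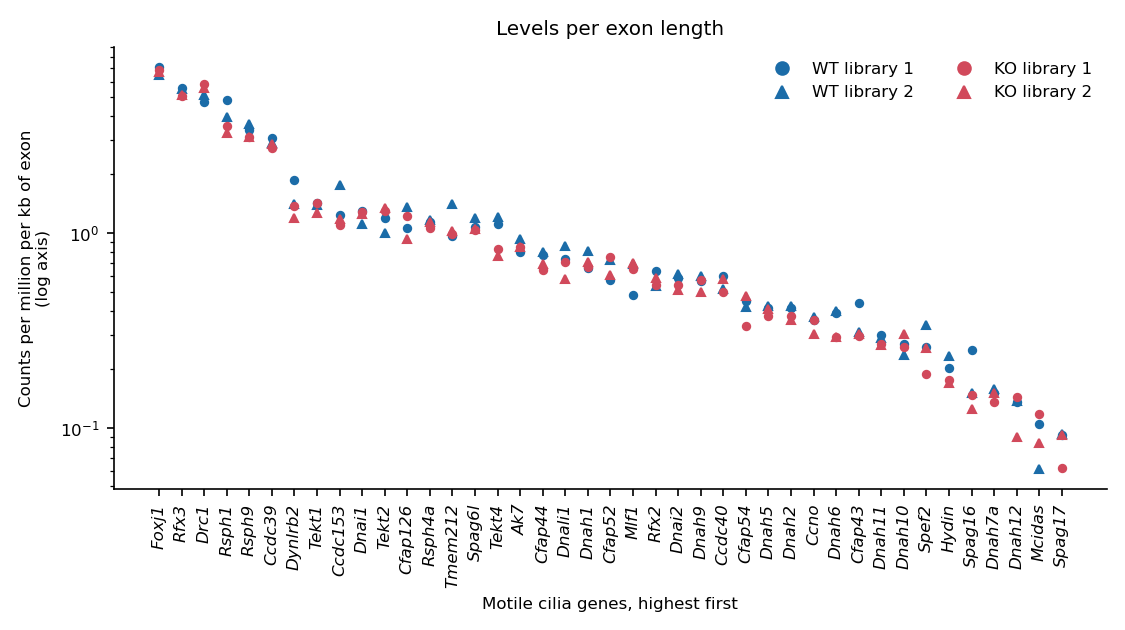
Level per exon length (CPM per kb of merged exons, log axis) of each listed gene in the 4 libraries, highest mean first; blue is WT, red is KO, circles are library 1 and triangles library 2. Foxj1, Rfx3 and Drc1 lead with means over the 4 libraries above 5, and the symbols of the genotypes lie close together along the whole order.

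Other genes of motile cilia were read from 6 further lists of 111 genes, of which 96 were tested. Of these 96, 2 fell and 0 rose (3.19% and 3.35% of all genes), and their median log2 fold change was -0.04. At an unadjusted p under 0.05, 9 were lower and 1 higher (8.53% and 8.86% of all genes). Odad2, which docks outer arms, had 1.05 and 1.17 CPM in WT and 0.525 and 0.621 in KO. The log2 difference was -0.96 with an SE of 0.266 (adjusted p = 0.0278 in edgeR), and the call was lost without WT library 2 (adjusted p = 0.142) and without KO library 1 (adjusted p = 0.141). Cfap65 had 10.98 and 10.8 CPM in WT and 8.56 and 8.84 in KO, a log2 difference of -0.33 with an SE of 0.077 (adjusted p = 0.00818 in edgeR). DESeq2 called it too (adjusted p = 0.0272), while without KO library 1 its edgeR adjusted p was 0.0517.

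By role, those lists gave medians between -0.16 and 0.003. Assembly factors that build dynein arms before they enter the cilium had 0 of 11 called and the median of 0.003. Further radial spoke and regulatory complex genes had 0 of 25 called and a median of -0.02. Further regulators of multiciliated cells had 0 of 14 called and the lowest median, -0.16. Among them Gmnc, which acts upstream of Mcidas, had 1.38 and 1.40 CPM in WT and 0.709 and 0.960 in KO, a log2 difference of -0.74 with an SE of 0.232 (adjusted p = 0.0565 in edgeR). Gmnc passed in edgeR without a filter (adjusted p = 0.0251), with the stricter filter (0.0331), with the replicate block (0.0383) and without KO library 2 (-0.97, adjusted p = 0.0191). Its adjusted p was 0.13 to 0.341 without any other library, the highest without KO library 1 (-0.53). Genes of intraflagellar transport and primary cilia, which neurons and glia also carry, had 0 of 43 called, with 3 lower and 3 higher at an unadjusted p under 0.05, a median of -0.01 and folds from -0.16 to 0.12 on the log2 scale.

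Markers of the cells that carry motile cilia were read beside them. Ependymal genes outside the axoneme were tested for 11 of 12, of which 1 fell, 0 rose and 9 had a fold change below 0, with a median of -0.17. At an unadjusted p under 0.05, 6 of the 11 were lower and 0 higher (8.53% and 8.86% of all genes). For 7, both KO libraries lay below both WT libraries (22.9% of all genes). The one that fell was Hspa2, a heat shock protein gene, from 51.1 ± 0.43 to 44.9 ± 0.98 CPM (SD, n = 2, log2 fold change -0.19, edgeR adjusted p = 0.00119). Cd24a, a surface protein gene, had 17.5 and 17.2 CPM in WT and 15.4 and 15.4 CPM in KO without a call (log2 fold change -0.17, edgeR adjusted p = 0.0946). S100b, which astrocytes also make, had 107 ± 2.75 and 102 ± 1.92 CPM (SD, n = 2) and was not called.

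Choroid plexus epithelium, the other ciliated epithelium of the ventricles, showed larger differences in the same libraries. Of its 20 genes 9 fell and 0 rose (3.19% and 3.35% of all genes), and the median log2 fold change was -0.34. Ttr, its main secreted protein, had 560.5 and 559.9 CPM in WT and 388 and 383 CPM in KO (log2 fold change -0.54, SE 0.015, edgeR adjusted p = 1.29e-17). Slc4a5, a bicarbonate transporter gene, fell by 0.90 on that scale, Kl, which encodes klotho, by 0.53, and Clic6, a chloride channel gene, by 0.42. The summed level of the 20 genes was 765 and 760 CPM in WT and 553 and 546 CPM in KO, a ratio of 0.721, beside 0.929 for the 41 motile cilia genes. Choroid plexus genes and motile cilia genes thus had medians of the same sign, and the part of one in the other was not tested. The difference between these lists was not tested either.

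Spermatids, whose flagella use many of the same proteins, left almost no RNA here. Of 12 spermatid and flagellum genes 6 had 0 reads in all 4 libraries, among them Prm1, Prm2, Tnp1 and Tnp2, and the 12 summed to between 1.71 and 2.21 CPM per library. Among all genes tested, 3.19% were called lower and 3.35% higher, beside the counts that follow. Astrocyte genes were lower in part, with 4 of 8 down and 0 up and a median of -0.06. Oligodendrocyte genes were higher, with 7 of 8 up and 0 down and a median of 0.07. Neuron genes had 2 of 8 up, 0 down and a median of 0.03, and the whole cerebellar and pituitary list had 8 of 9 tested genes down and a median of -1.14. Tanycyte and subcommissural organ genes, of other cells at the ventricles, had 2 of 10 down (Crym and Dio2), 0 up and a median of -0.06. Microglia genes had 0 of 8 called, with 0 lower and 1 higher at an unadjusted p under 0.05, and vessel genes 1 of 8 up and 0 down. The part of these shifts in the motile cilia values was not tested.

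**Figure D5:**
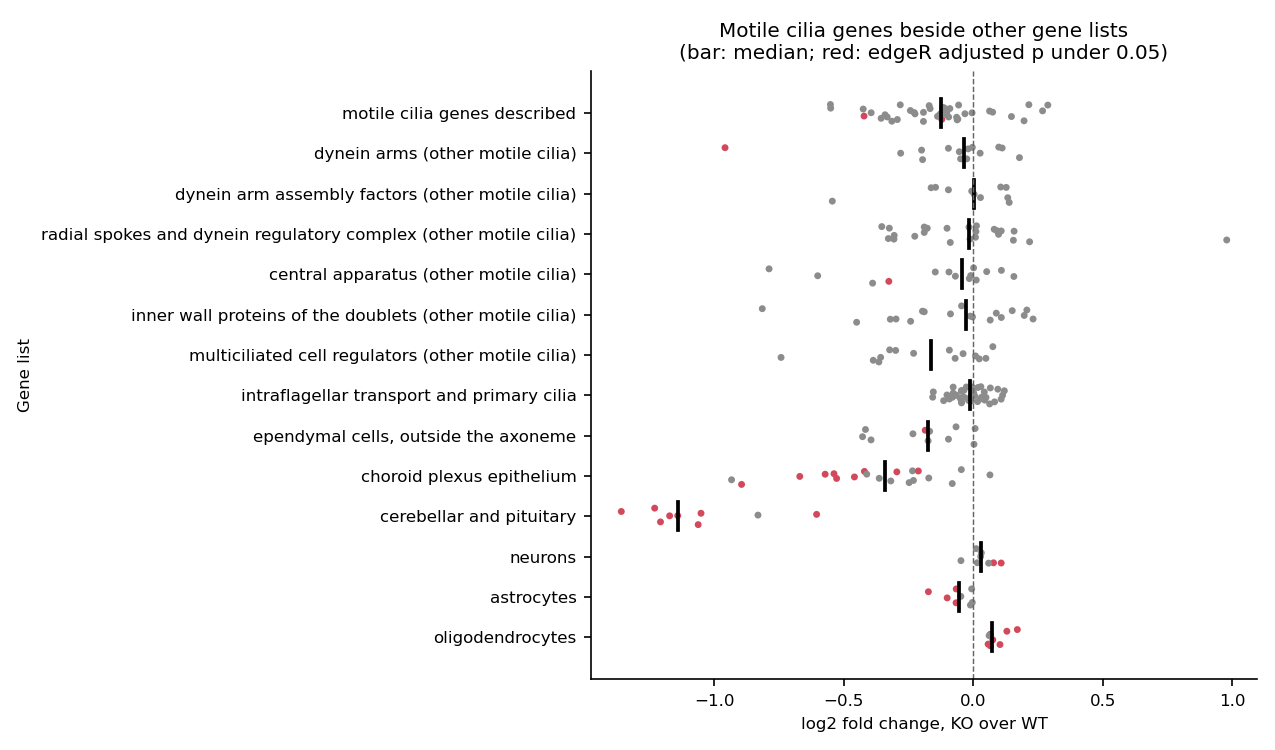
Log2 fold change, KO over WT, of every tested gene (points, spread vertically at random for sight) in the motile cilia genes described and in the other gene lists; black bars are medians and red marks an edgeR adjusted p under 0.05. The bar of the motile cilia genes is at -0.12, that of choroid plexus epithelium at -0.34 and that of intraflagellar transport and primary cilia at -0.01.

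Genes with and without the promoter motifs were set side by side as a description. The form with paired X-box arms was written after a window of a listed gene had been seen, and that gene was not set aside here. The 8 genes with paired X-box arms had a median log2 fold change of -0.28, with 7 of 8 below 0. The other 29 genes with a window had -0.12, with 23 below 0. For the single arm GTTGCC the order was the reverse, with -0.12 over 19 genes and -0.15 over 18. For that arm with its next base, GTTGCCA, found in 8 of the 37 genes (21.6%) and in 5.02% of all genes, the median was 0.04 with 4 of 8 below 0, and -0.17 over the other 29. The 3 genes with the forkhead motif had a median of -0.03, and the other 34 had -0.13.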

How the data were processed

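Messenger RNA libraries of 2 WT and 2 KO samples were analysed from 1 deposited table of raw read counts per Ensembl mouse gene, with columns matched to samples by title. The submitters' processing notes name STAR 2.6.1c and featureCounts, with FastQC, DESeq2 and the build GRCm39. The strand setting, the annotation and the role of each tool were not given in the sources used here. Of counts between 1 and 20, 72.8% to 74.3% were even, so both mates of a pair appear to have been counted, and counting error is larger than read numbers alone give.

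Symbols came from a reference table that matched 52081 of 55414 identifiers. Dnai1 and Dnai2 were matched under older symbols, and 247 of 258 genes of the other 17 lists were matched. In R 4.3.3, edgeR 4.0.16 (filterByExpr with a minimum count of 10, TMM, glmQLFit and glmQLFTest) tested KO against WT over 21592 genes, with Benjamini-Hochberg adjustment and a threshold of 0.05. The SE is the log2 fold change over the root of F. CPM uses the TMM-scaled library size. The fit was tested on simulated data. Alternatives were DESeq2 size factors, DESeq2 1.42.0, limma-trend (limma 3.58.1), filters, a replicate block, halved counts, dispersion 0 and each library left out. Members and lists were chosen with earlier results of these data known. All 41 genes are accounted for. The promoter window of 1 gene is not reported here. Values per library are given for called genes, regulators and the most abundant gene of each role, and others were added after their values were seen. From other lists up to 4 genes by smallest p, or the most abundant, are named, except for spermatid genes with 0 reads, which were chosen after their values were seen.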

Additional observations from a re-analysis of the deposited data

How the results depend on the processing

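Of the 41 motile cilia genes, 2 were lower in KO; this count was 4 without a filter, with a stricter filter and with a replicate block (Rsph1 and Tekt4 added each time) and 0 with DESeq2, where 13 of the 41 had no adjusted p. It ranged from 1 to 3 when each library was left out. The count of higher genes, 0, became 1 (Drc1) with the stricter filter and with dispersion 0, and ranged from 0 to 1 with a library left out. The stricter filter tested 36 of the 41. Over all genes, lower calls were 688 of 21592 in the main fit, 784 of 33367 without a filter and 781 of 15155 with the stricter filter. They were 772 of 21592 with the block and 480 of 21592 with DESeq2. Higher calls over all genes were 723 in the main fit, 852 with the stricter filter and 743 with dispersion 0. The median log2 fold change of the 41 genes ranged from -0.143 to -0.116 with a library left out. The count of other motile cilia genes lower, 2, was 1 with DESeq2 and ranged from 0 to 3 with a library left out, 0 being without KO library 1. Library numbers did not deviate together between genotypes (r = 0.0157 over 21592 genes, across genes and 2 pairs). That value cannot settle whether same-numbered libraries share a batch, which the labels do not give. The block moved the count of all calls from 1411 to 1590. With a library left out, 14 genes changed sign in at least 1 fit, and the cause was not tested. Their log2 fold changes ranged from -0.0685 to 0.0613 for Foxj1, -0.18 to 0.0768 for Rfx2, -0.0428 to 0.712 for Mcidas, -0.0295 to 0.186 for Dnai1, -0.232 to 0.0677 for Dnah1, -0.618 to 0.0654 for Dnah12 and -0.371 to 0.138 for Cfap54. They ranged from -0.17 to 0.051 for Ccdc40, -0.154 to 0.0187 for Tekt1, -0.104 to 0.243 for Cfap52, -0.384 to 0.0233 for Cfap126, -0.137 to 0.0822 for Ak7, -0.0411 to 0.482 for Mlf1 and -0.488 to 0.0545 for Tmem212. The other 27 genes kept their sign in all 12 alternatives that tested them. Depth limits Mcidas most, with 12 to 23 reads per library.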
